A study of Homo sapiens with 8 samples.

Results

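The keratin genes of chromosomes 12 and 17 were taken from GENCODE on hg19 as the protein-coding genes whose symbol is KRT followed by a number, with at most 1 letter after it. The rule gave 55 genes of 20162 protein-coding genes, 27 on chromosome 12 and 28 on chromosome 17. They were followed in 8 CUT&Tag peak lists of HCT15, a long-established line of human colorectal cancer cells. CUT&Tag directs a transposase to chromatin with an antibody, and the peaks used here mark where histone H3 was succinylated at lysine 23 (H3K23su) or acetylated at lysine 27 (H3K27ac). For each of the 2 marks there were 2 lists of the parental line (HCT15-Pa), labelled as treated with the solvent DMSO, and 2 of the derived 5-fluorouracil-resistant line (HCT15-FR), labelled with 20 μg/mL 5-fluorouracil (5-FU), a drug that resembles uracil and disturbs the making of DNA and RNA. The methods of the study describe HCT15-FR as kept under the drug and then moved to drug-free medium before experiments. Nothing in the labels or methods states that the 2 libraries of a line came from separate cultures, so spread between libraries may be technical.

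Keratins are the intermediate filament proteins of epithelial cells. A filament is built from pairs of a type I and a type II keratin, whose genes lie in separate clusters: the type II genes on chromosome 12, with the type I gene KRT18 at their end, and the other type I genes on chromosome 17. Which pairs a cell makes depends on its tissue and differentiation: KRT8 with KRT18, KRT19 and KRT20 in the simple epithelium of the intestine, KRT5 with KRT14 in basal cells of stratified epithelium, and the hair keratins in the hair shaft. Acetylation of H3K27 is a mark of active promoters and enhancers, and succinylation of H3K23 was the mark whose change with drug resistance the study set out to map.

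A transcription start site (TSS) was the 5′ end of the MANE Select transcript, the reference transcript of a gene, and a TSS was counted as having a peak when a peak of a list reached within 2 kb of it by at least 1 bp. The closest TSSs of 2 keratin genes by this rule were 8759 bp apart, so no window was shared. The gene record of KRT8, however, begins upstream of the TSS used, inside the window of KRT18. The lists held 65364 to 68365 peaks for H3K23su and 70600 to 76676 for H3K27ac. Their mean peak width was 505 to 507 bp in HCT15-Pa and 581 to 586 bp in HCT15-FR for H3K23su, and 550 bp in both HCT15-Pa lists and 608 to 627 bp in HCT15-FR for H3K27ac. HCT15-FR peaks covered 1.19 times as many bases of the genome as HCT15-Pa peaks for either mark. The lists give no read counts, the depth behind a peak is unknown from them, and a missing peak means that none was detectable at the threshold of the authors. As a check of the cell type, all 6 marker genes of colon epithelium (EPCAM, CDH1, CDX2, VIL1, LGALS4 and CDH17) had a TSS peak of H3K27ac in all 4 libraries, against 59.0% of all protein-coding genes. For H3K23su 4 of the 6 did, against 54.7%, and CDH17 had a peak in HCT15-FR only. Of markers of other cells H3K27ac was in all 4 libraries at COL1A1 among 5 fibroblast genes and CD14 among 4 leukocyte genes, and at none of 2 endothelial genes or of 5 genes of skin keratinocytes, KRT1 and KRT10 among them.

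Sequences are shown for sites that the results below turn on, read from the reference genome GRCh37, which has the coordinates of hg19. The first is the 250 bases upstream of the TSS of KRT20, an intestinal keratin of chromosome 17 that had TSS peaks in HCT15-FR alone. Its H3K27ac peaks lay downstream of these bases, and only an H3K23su peak of HCT15-FR replicate 1 reached them, over the last 15. The stretch lies at chr17:39041495-39041744 on the minus strand, outside annotated UTRs. Capitals mark a CDX-type motif (CATAAA or TTTATG), the only one of the 4 motifs searched that it held.
KRT20 upstream: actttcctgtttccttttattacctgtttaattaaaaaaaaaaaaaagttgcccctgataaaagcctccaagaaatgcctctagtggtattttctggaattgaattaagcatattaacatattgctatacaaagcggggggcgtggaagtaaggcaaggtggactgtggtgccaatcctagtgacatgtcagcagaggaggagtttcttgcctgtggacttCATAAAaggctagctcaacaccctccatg
CATAAA began 29 bases before the TSS of KRT20. It differs from TATAAA in its first letter only, and TATAAA began 29 bases before the TSS of KRT10 and 30 before that of KRT13. Whether CATAAA acts at KRT20 as a CDX site or as a form of TATA box was not tested. A CDX-type motif was held by 44.4% of the 27 keratins without a TSS peak and by 12.5% of the 8 with peaks in all libraries. Among the 55 keratins, 21 (38.2%) held a CDX-type motif in these 250 bases, against 6.95% of all protein-coding genes, and 27 (49.1%) held a TATA box (TATAAA or TTTATA, which can overlap), against 9.40%. A GC box (GGGCGG or CCGCCC) was found in 10 keratins (18.2%), against 58.6% of all genes, and an AP-1 motif (TGAGTCA or TGACTCA) in KRT16 alone (1.82%), 233 bases before its TSS, against 3.06%. Both strands were searched, and a match is a run of letters, not a shown binding site.

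The others are 3 of the 5 regions of the clusters that had a peak of both marks in both HCT15-FR libraries and none in any HCT15-Pa library. For each, the middle 300 bases are given on the plus strand, with AP-1 motifs in capitals. They lie at chr12:52834876-52835175 between KRT75 and KRT6B, at chr12:52848301-52848600 upstream of KRT6B, and at chr12:52910229-52910528 inside KRT5.
KRT75 region: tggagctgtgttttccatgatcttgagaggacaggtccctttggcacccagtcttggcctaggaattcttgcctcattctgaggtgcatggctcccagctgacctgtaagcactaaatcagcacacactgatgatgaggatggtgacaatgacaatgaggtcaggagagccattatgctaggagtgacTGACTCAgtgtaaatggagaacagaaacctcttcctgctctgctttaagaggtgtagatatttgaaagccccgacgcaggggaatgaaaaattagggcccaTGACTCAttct
KRT6B region: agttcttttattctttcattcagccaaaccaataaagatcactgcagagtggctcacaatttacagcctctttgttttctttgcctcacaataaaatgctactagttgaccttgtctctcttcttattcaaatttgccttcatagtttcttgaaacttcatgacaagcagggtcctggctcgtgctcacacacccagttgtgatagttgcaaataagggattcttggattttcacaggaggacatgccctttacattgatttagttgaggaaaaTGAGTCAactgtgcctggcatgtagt
KRT5 region: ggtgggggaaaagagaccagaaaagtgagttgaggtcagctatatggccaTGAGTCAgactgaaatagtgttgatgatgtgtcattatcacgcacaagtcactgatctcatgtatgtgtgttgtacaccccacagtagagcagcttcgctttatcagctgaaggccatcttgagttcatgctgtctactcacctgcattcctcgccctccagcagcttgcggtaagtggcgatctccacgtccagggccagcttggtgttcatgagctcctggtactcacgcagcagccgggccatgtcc
These 3 were the ones with an AP-1 motif in their middle 300 bases. The same stretch held an AP-1 motif in 3 of the 29 regions of the clusters present in all 8 libraries and in 12% of 96196 regions of the genome found in at least 2 of the 8 lists. Over their whole length, which is greater, 17 of the 29 regions held the motif, and 3 of the 5. The genome share was not limited to regions with peaks in HCT15-FR alone, so it is not a like background for the 5. The paper reports AP-1 motifs as enriched both where H3K23su was gained and where it was lost.

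TSS peaks of either mark were sparser at keratin genes than at protein-coding genes as a whole. A TSS peak was absent from all 8 libraries at 27 of 55 keratins (49.1%), against 25.1% of all protein-coding genes, and present in all 8 at 8 keratins (14.5%), against 53.9%. These 8 were KRT80, KRT5, KRT71, KRT78, KRT8, KRT18, KRT13 and KRT19. The other 20 genes had a peak in 1 to 7 libraries. For H3K23su, 9 keratins (16.4%) had a peak in all 4 libraries, the 8 genes and KRT4, against 54.7% of all protein-coding genes, and 31 had none, against 33.4%. For H3K27ac, 10 (18.2%) had a peak in all 4 libraries, the 8 genes with KRT81 and KRT72, against 59.0%, and 34 had none, against 26.5%.

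The genes with and without peaks are given next by the known classes of keratins. All 7 keratins of simple epithelia had a TSS peak in at least 1 library, and 4 of them, KRT80, KRT8, KRT18 and KRT19, in all 8. Of 17 hair shaft keratins 10 had no peak in any library and none had peaks in all 8. Of 9 keratins of the hair follicle sheath 5 had no peak and KRT71 had peaks in all 8. Of 13 suprabasal and site-specific keratins of skin, cornea and mucosa 7 had no peak, while KRT13 and KRT78 had peaks in all 8. The 3 basal keratins were KRT5 with peaks in all 8 libraries, KRT15 with peaks in 2 and KRT14, the usual partner of KRT5, with none. KRT6A, KRT6B and KRT6C, of the 5 keratins of stressed or activated epithelium, had none either. KRT222, a keratin-like gene outside these classes, had none.

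**Figure D1:**
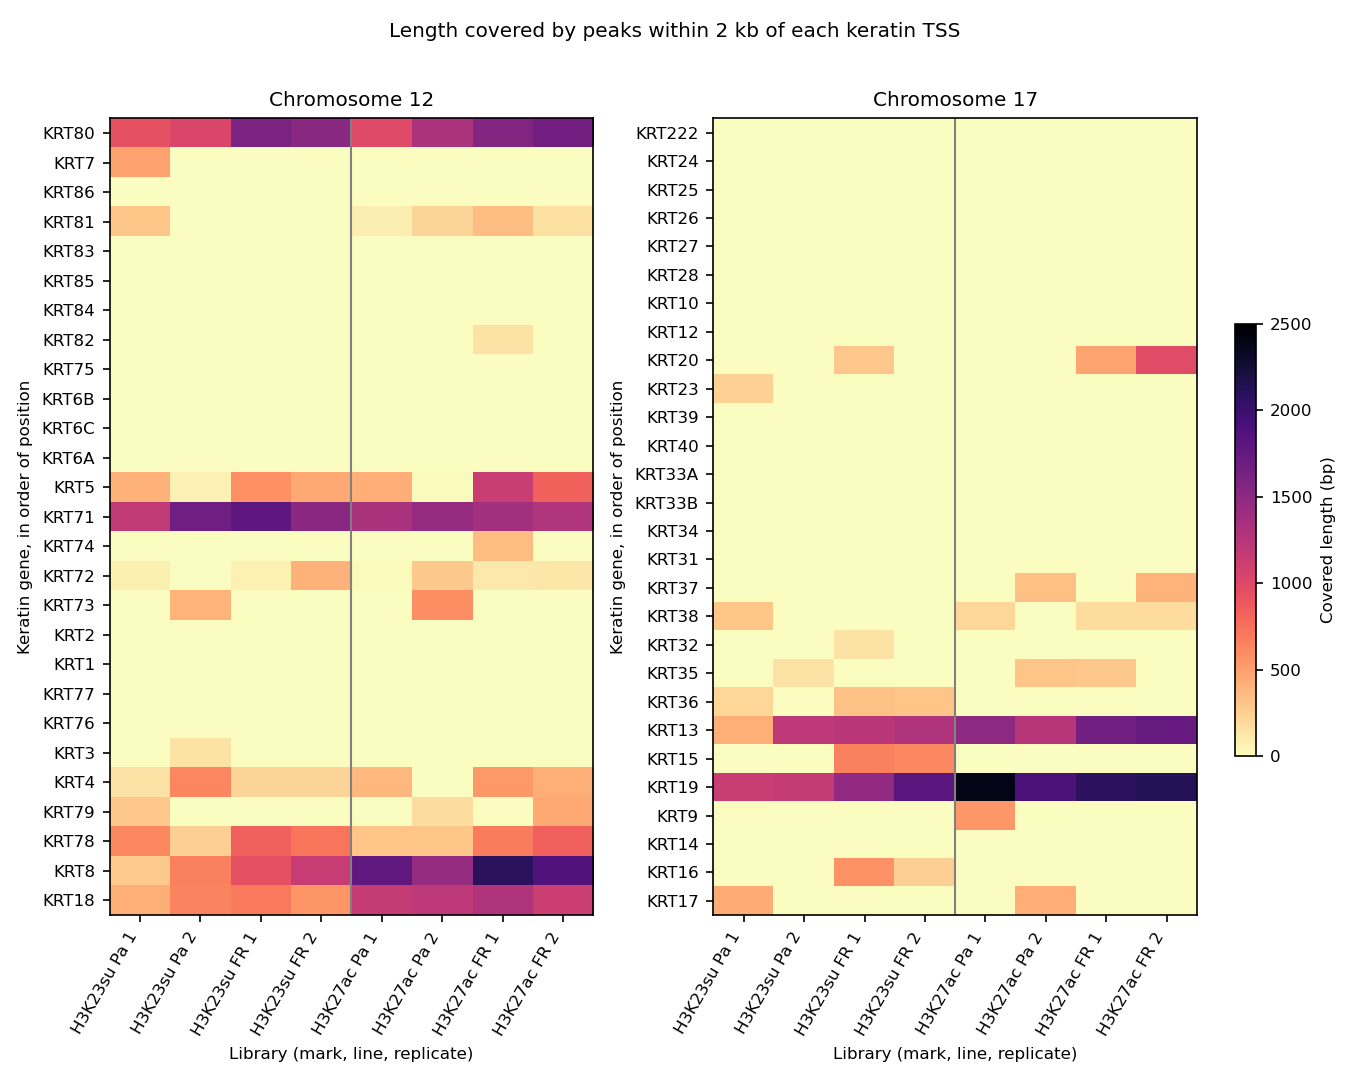
Length in bp covered by peaks within 2 kb of the TSS of each of the 55 keratin genes (rows, in order of position) in each of the 8 libraries (columns), from 0 (pale) to 2500 bp (black). KRT80, KRT71 and KRT19 are at 930 bp or more in every library, KRT8, KRT18 and KRT13 are at 1129 bp or more in every H3K27ac library but paler for H3K23su, down to 277, 417 and 415 bp in HCT15-Pa replicate 1, and 27 genes are at 0 in all 8.

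KRT8 and KRT18, the keratin pair of simple epithelia, had a peak within 2 kb of the TSS in all 8 libraries. At KRT8 (chr12:53290971-53343738, minus strand), H3K23su peaks covered 277 and 659 bp of the window of 2 kb to either side in HCT15-Pa and 947 and 1147 bp in HCT15-FR. H3K27ac peaks covered 1772 and 1440 bp in HCT15-Pa and 2097 and 1862 bp in HCT15-FR. For both marks the HCT15-FR libraries lay above both HCT15-Pa libraries, and a peak lay over the TSS itself in all 8. The differences were 579 bp for H3K23su and 373.5 bp for H3K27ac, each with p = 0.333 by the two-sided exact permutation test, the smallest p that 2 libraries against 2 can give. In the region over the TSS, chr12:53297254-53299173, H3K27ac covered 1772 and 1440 bp in HCT15-Pa and 1822 and 1563 bp in HCT15-FR, with overlap. H3K23su there covered 277 and 339 bp in HCT15-Pa and 802 and 356 bp in HCT15-FR. The next region upstream, chr12:53300070-53301857, crossed the window edge, and its H3K27ac peaks entered the window in HCT15-FR alone. Over that whole region H3K27ac covered 324 and 316 bp in HCT15-Pa and 1115 and 713 bp in HCT15-FR.

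At KRT18 (chr12:53342655-53346690, plus strand), H3K23su covered 417 and 644 bp in HCT15-Pa and 703 and 553 bp in HCT15-FR. H3K27ac covered 1157 and 1208 bp in HCT15-Pa and 1285 and 1129 bp in HCT15-FR. The lines overlapped for both marks. The H3K27ac peaks of the 4 libraries ran from 173 to 284 bp before the TSS to 955 to 1000 bp after it, whereas H3K23su peaks were shorter and left a gap after the TSS in 3 of 4 libraries. In the remaining library, HCT15-Pa replicate 1, the only H3K23su peak began 424 bp after the TSS. Across the 8 libraries the peaks spanned chr12:53342546-53343902, over exons and UTRs of both KRT18 and KRT8. The gene record of KRT8, on the other strand, begins inside this span, at chr12:53343738. Peaks here cannot be assigned to either gene alone.

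KRT19 (chr17:39679869-39684560, minus strand) encodes a type I keratin of simple epithelia. Its H3K23su peaks covered 1139 and 1159 bp in HCT15-Pa and 1469 and 1801 bp in HCT15-FR, without overlap of the lines. Its H3K27ac peaks covered 2386 and 1894 bp in HCT15-Pa and 2088 and 2126 bp in HCT15-FR, with overlap. Within its own list, the strongest H3K23su peak at KRT19 ranked at percentiles 48.6 and 70.9 of the authors' score in HCT15-Pa and 91.3 and 83.5 in HCT15-FR, where the score is the −log10 of the peak's P value. The strongest peak was not the same site throughout. In HCT15-FR replicate 1 it lay 537 to 988 bp downstream of the TSS, and in the other libraries upstream. The upstream peak of HCT15-FR replicate 1 stood at percentile 77.3. Peaks fell into an area around or just past the TSS and another from about 1019 to 2617 bp upstream, both present in all 8 libraries.

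KRT20 (chr17:39032141-39041494, minus strand), the keratin of differentiated intestinal epithelium, had no peak of either mark within 2 kb of its TSS in the 4 HCT15-Pa libraries. In HCT15-FR its H3K27ac peaks covered 475 and 982 bp, and its H3K23su peaks 292 and 0 bp. It was the only keratin with an H3K27ac peak in both HCT15-FR and neither HCT15-Pa library, 1 of 55 (1.82%) against a background of 1.42% of protein-coding genes. These H3K27ac peaks lay in an intron, 1014 to 1995 bp downstream of the TSS, and were weak, at percentiles 15.5 and 27.1 of their lists. Neither was in the stronger 50% of its list, and neither reached a window of 1 kb. KRT78 met the rule for H3K27ac in the former setting and KRT5 in the latter, in place of KRT20. An H3K23su peak of 146 bp in HCT15-FR replicate 1 reached over the TSS of KRT20. The nearest region with peaks in all 8 libraries lay upstream, at chr17:39057922-39060526, with its middle 17.7 kb from the TSS. There H3K27ac covered 1443 and 1900 bp in HCT15-Pa and 2329 and 2567 bp in HCT15-FR, and H3K23su 589 and 731 bp in HCT15-Pa and 936 and 1295 bp in HCT15-FR, so that HCT15-FR was higher for both marks.

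KRT80 (chr12:52562780-52585798, minus strand), a type II keratin counted here with those of simple epithelia, had a peak over the TSS in all 8 libraries. H3K23su covered 930 and 1029 bp in HCT15-Pa and 1596 and 1517 bp in HCT15-FR, a difference of 577 bp. H3K27ac covered 993 and 1312 bp in HCT15-Pa and 1564 and 1658 bp in HCT15-FR, a difference of 458.5 bp. Neither mark overlapped between the lines (exact permutation p = 0.333 for each). Its H3K27ac peak was among the strongest of each list, at percentiles 96.4 to 98.0. Its H3K23su peak stood at percentiles 64.6 and 51.6 in HCT15-Pa and at 79.7 and 95.1 in HCT15-FR.

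Of the remaining simple keratins, KRT7 had 1 H3K23su peak in HCT15-Pa replicate 1, which covered 483 bp, and KRT23 had 1 in the same library. KRT7, a keratin of ductal epithelia, also held a region with peaks in all 8 libraries inside the gene, at chr12:52637095-52638569. Its H3K27ac peaks there stood at percentiles 80.6 to 91.0 of their lists.

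Beyond the simple keratins, 4 genes had peaks in all 8 libraries. KRT5 (chr12:52908359-52914314, minus strand), the type II keratin of basal cells, had its peaks upstream and none over the TSS. H3K23su covered 406 and 59 bp of the window in HCT15-Pa and 579 and 458 bp in HCT15-FR, and H3K27ac 423 and 15 bp in HCT15-Pa and 1134 and 827 bp in HCT15-FR. HCT15-FR was higher for both marks, and the region behind these values, chr12:52914958-52917105, reached past the window. Over the whole region H3K23su covered 1019 and 880 bp in HCT15-Pa and 1247 and 1151 bp in HCT15-FR. H3K27ac there covered 1125 and 853 bp in HCT15-Pa and 2061 and 1505 bp in HCT15-FR. The lines thus stayed apart, but in proportion by less than in the window.

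KRT13 (chr17:39657233-39661957, minus strand), a type I keratin of mucosal epithelium, had H3K23su over 415 and 1209 bp in HCT15-Pa and 1228 and 1289 bp in HCT15-FR. Its H3K27ac covered 1493 and 1241 bp in HCT15-Pa and 1667 and 1730 bp in HCT15-FR. The lines did not overlap, although HCT15-Pa replicate 2 came close to HCT15-FR for H3K23su. KRT4, its usual type II partner, had H3K23su in all 4 libraries (146 and 632 bp in HCT15-Pa, 221 and 215 bp in HCT15-FR) and H3K27ac in 3 (374 and 0 bp in HCT15-Pa, 537 and 413 bp in HCT15-FR).

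KRT78 (chr12:53231588-53242876, minus strand), a type II keratin, had its peaks from 769 to 1758 bp downstream of the TSS. H3K23su covered 616 and 252 bp in HCT15-Pa and 834 and 716 bp in HCT15-FR, and H3K27ac 312 and 296 bp in HCT15-Pa and 678 and 836 bp in HCT15-FR, with no overlap for either mark. In a window of 1 kb the H3K23su difference turned to −22.5 bp. KRT71 (chr12:52937693-52946929, minus strand), a keratin of the inner root sheath of the hair follicle, also had its peaks downstream, inside the gene. Its H3K23su covered 1183 and 1679 bp in HCT15-Pa and 1781 and 1509 bp in HCT15-FR, and its H3K27ac 1323 and 1447 bp in HCT15-Pa and 1365 and 1274 bp in HCT15-FR. The lines overlapped for both marks.

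**Figure D2:**
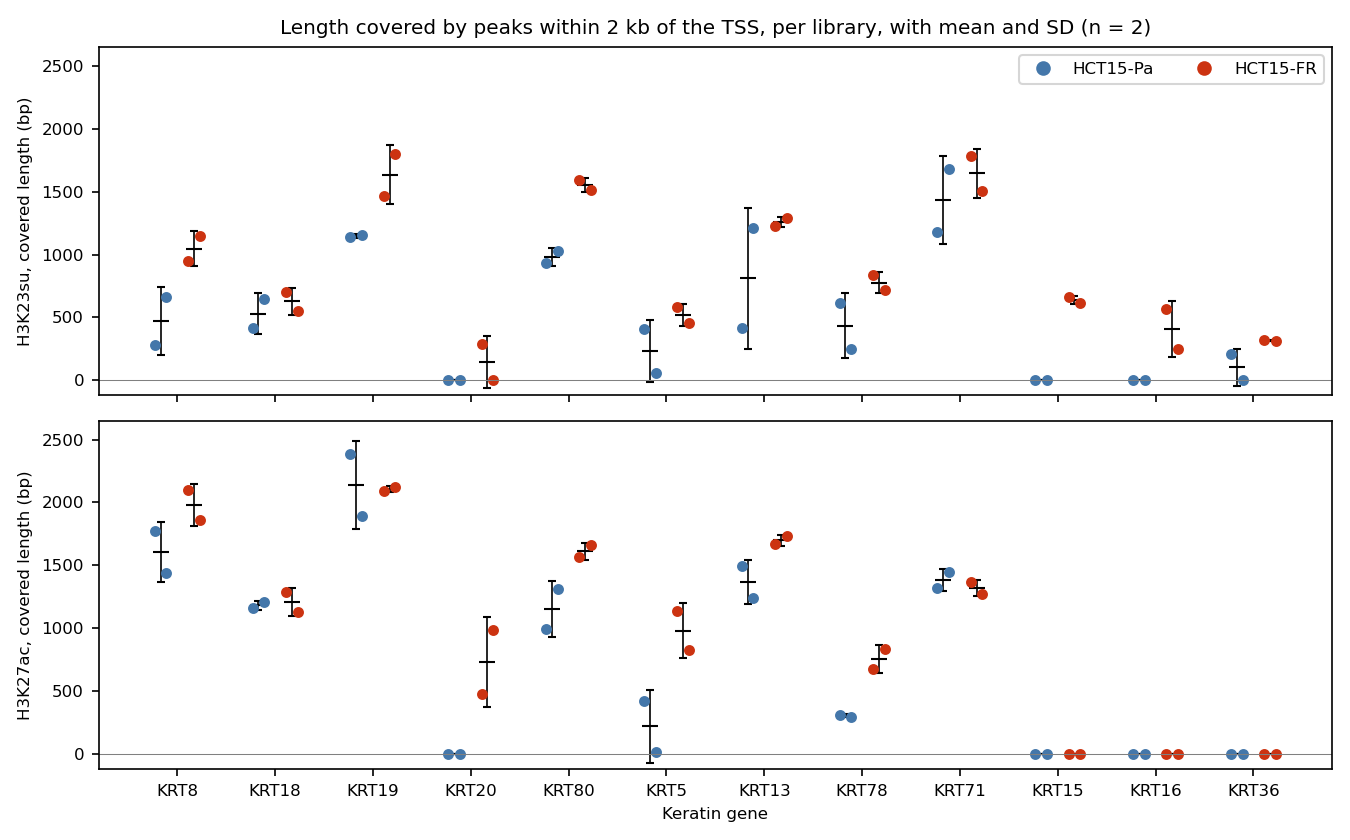
Length in bp covered by H3K23su peaks (upper panel) and H3K27ac peaks (lower panel) within 2 kb of the TSS of 12 keratin genes, with 1 point per library (HCT15-Pa blue, HCT15-FR red) and black bars for the mean and SD (n = 2 libraries). HCT15-FR points lie above HCT15-Pa points for both marks at KRT8, KRT80, KRT5, KRT13 and KRT78, and KRT15, KRT16 and KRT36 have no H3K27ac.

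KRT15 and KRT16 were the keratins with an H3K23su peak in both HCT15-FR and neither HCT15-Pa library, 2 of 55 (3.64%) against a background of 1.86% of protein-coding genes. At KRT15, a type I keratin of basal cells, these peaks covered 663 and 616 bp, from 1162 to 428 bp upstream of the TSS, and no H3K27ac peak lay in the window. They stood at percentiles 28.3 and 43.3 of their lists. A further upstream region at chr17:39677173-39678996, over the 5′ end of a longer KRT15 transcript, had peaks of both marks in all 8 libraries. At KRT16 (chr17:39766030-39772151, minus strand), a type I keratin of stressed epithelium, the peaks covered 568 and 252 bp, only the first of which reached the TSS, and stood at percentiles 37.3 and 10.0. Neither gene kept this pattern in the stronger 50% of each list, where the count was 0. With the 5′ end of the gene record as the TSS the count was 1.

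No keratin had a peak in both HCT15-Pa and neither HCT15-FR library, for H3K23su (background 1.72%) or for H3K27ac (2.19%). These counts rest on single libraries: without HCT15-Pa replicate 2 of H3K23su 6 keratins met the rule, and without replicate 1 there were 3. Without HCT15-Pa replicate 1 or HCT15-FR replicate 2 the H3K23su count of the reverse kind was 4, and without those of H3K27ac it was 3.

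Among hair keratins, KRT36 had H3K23su over 206 and 0 bp in HCT15-Pa and 319 and 311 bp in HCT15-FR, and no H3K27ac. The HCT15-FR peaks lay over the TSS and the HCT15-Pa peak upstream of it, from 714 to 509 bp. KRT81 had H3K27ac in all 4 libraries, over 82 and 223 bp in HCT15-Pa and 339 and 155 bp in HCT15-FR, and H3K23su over 296 bp in HCT15-Pa replicate 1 alone. KRT38, KRT35 and KRT79, the last a keratin of skin, had peaks in 4, 3 and 3 of 8 libraries, and no value above 455 bp. KRT72, of the inner root sheath, had peaks in 7 libraries and values from 0 to 408 bp. A further 7 genes (KRT7, KRT82, KRT74, KRT3, KRT23, KRT32 and KRT9) had a peak in 1 library and 3 (KRT73, KRT37 and KRT17) in 2.

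The number of keratin genes with a TSS peak overlapped between the lines for both marks. For H3K23su there were 17 and 12 genes in HCT15-Pa (14.5 ± 3.54, SD, n = 2) and 15 and 13 in HCT15-FR (14 ± 1.41, n = 2), a difference of −0.5 (two-sided exact permutation test, p = 1). For H3K27ac there were 13 and 15 genes in HCT15-Pa (14 ± 1.41, n = 2) and 16 and 15 in HCT15-FR (15.5 ± 0.707, n = 2), a difference of 1.5 (exact permutation p = 0.667). Per library this was 21.8% to 30.9% of the keratins, against 59.9% to 66.5% of all protein-coding genes. On chromosome 12 alone the H3K23su numbers were 11 and 9 genes in HCT15-Pa and 8 and 8 in HCT15-FR, without overlap (exact permutation p = 0.333), and on chromosome 17 they were 6 and 3 against 7 and 5, with overlap. Without HCT15-Pa replicate 1 the H3K23su difference over both was 2, and without HCT15-FR replicate 2 it was 0.5. The marks had 14.25 ± 2.22 (H3K23su) and 14.75 ± 1.26 (H3K27ac) genes (SD, n = 4 libraries each), a difference of 0.5 (exact permutation within lines, p = 0.833, where the smallest possible is 0.0556). The authors called H3K27ac with the broad option, and the mark and the way of calling cannot be told apart.

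Where a keratin had a peak in all 4 libraries of a mark, the covered length was often greater in HCT15-FR. For H3K23su both HCT15-FR libraries covered more bp than both HCT15-Pa libraries at 6 of 9 genes (66.7%), KRT80, KRT5, KRT78, KRT8, KRT13 and KRT19, against 45.8% of all such genes, and none was lower (background 6.34%). For H3K27ac this held at 5 of 10 (50.0%), KRT80, KRT5, KRT78, KRT8 and KRT13, against 34.9%, with none lower (10.9%). The median difference was 341 bp over the 9 keratins and 162.5 bp over all 11021 genes for H3K23su, and 213 bp over the 10 and 71 bp over all 11901 for H3K27ac. Without HCT15-Pa replicate 2 it held at 10 of 11 keratins with a peak in all remaining H3K23su libraries, against 62.0% of all such genes, and at 8 of 12 for H3K27ac, against 50.2%. In the stronger 50% of each list it held at 2 of 5 keratins (40.0%) for H3K23su, against 44.8%, and at 2 of 7 (28.6%) for H3K27ac, against 34.7%, so there the keratin shares were below those of all genes. The mean peak width of the lists, given above, moved the same way, and its part in these counts was not tested.

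The clusters were then taken whole, from the first to the last base of their keratin genes. The cluster of chromosome 12 ran over 784 kb from KRT80 to KRT18, and that of chromosome 17 over 970 kb from KRT222 to KRT17. In chromosome 12 there were 5.61 to 6.63 H3K23su peaks and 7.02 to 8.42 H3K27ac peaks per 100 kb, against 2.22 to 2.36 and 2.30 to 2.57 over the whole chromosome. In chromosome 17 there were 2.47 to 3.40 and 2.68 to 3.81, against 4.16 to 4.35 and 4.63 to 5.10. The type II cluster was thus denser in peaks than its chromosome and the type I cluster sparser, in all 8 libraries.

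H3K23su peaks covered 21.7 and 21.0 kb of the chromosome 12 cluster in HCT15-Pa (21.4 ± 0.520, SD, n = 2) and 31.8 and 31.6 kb in HCT15-FR (31.7 ± 0.146, n = 2), a ratio of 1.48 (exact permutation p = 0.333). Of the chromosome 17 cluster they covered 10.2 and 9.93 kb in HCT15-Pa and 17.1 and 13.6 kb in HCT15-FR, a ratio of 1.52 (exact permutation p = 0.333). For H3K27ac the values were 34.4 and 33.8 kb against 45.9 and 42.5 kb on chromosome 12 (ratio 1.30) and 16.2 and 16.0 kb against 23.6 and 23.5 kb on chromosome 17 (ratio 1.46), each with p = 0.333 by the same exact test. In all 4 comparisons both HCT15-FR libraries lay above both HCT15-Pa libraries. The ratio over the whole genome was 1.19 for either mark. Divided by the Mb each list covers in the genome, the H3K23su values were 0.642 and 0.798 kb per Mb on chromosome 12 and 0.302 and 0.386 on chromosome 17 (means of HCT15-Pa and HCT15-FR), and the H3K27ac values 0.871 and 0.951, and 0.411 and 0.506. HCT15-FR stayed above HCT15-Pa without overlap in each.

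The number of peaks moved less than the length. On chromosome 12 there were 52 and 44 H3K23su peaks in HCT15-Pa and 52 and 50 in HCT15-FR, which overlapped (exact permutation p = 1). Without HCT15-Pa replicate 2 the difference of means turned from 3 to −1. On chromosome 17 there were 25 and 24 against 33 and 29. For H3K27ac there were 55 and 56 against 66 and 60 peaks on chromosome 12, and 26 and 29 against 37 and 35 on chromosome 17, a difference of 8.5 that turned to −1.5 in the stronger 50% of each list. The mean width of the H3K23su peaks in the chromosome 12 cluster was 418 and 477 bp in HCT15-Pa and 612 and 632 bp in HCT15-FR, a ratio of 1.39. The ratio was 1.20 for H3K23su on chromosome 17, and 1.14 and 1.11 for H3K27ac on chromosomes 12 and 17. Over the whole lists the mean widths given above were greater in HCT15-FR too, 505 to 507 bp against 581 to 586 bp for H3K23su and 550 bp against 608 to 627 bp for H3K27ac.

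**Figure D3:**
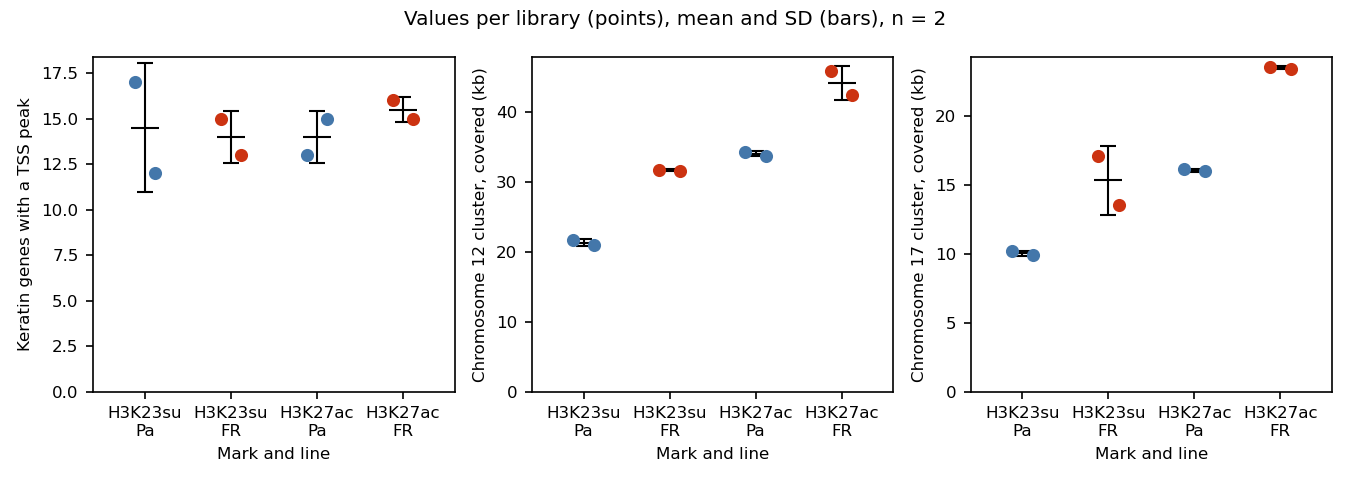
Number of keratin genes with a TSS peak (left) and kb covered by peaks in the clusters of chromosome 12 (middle) and chromosome 17 (right), for each mark and line, with 1 point per library (HCT15-Pa blue, HCT15-FR red) and black bars for the mean and SD (n = 2). The gene numbers of the lines overlap, whereas the covered length is higher in both HCT15-FR libraries in every pair.

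Overlapping peaks from the 4 lists of each mark were merged into regions. Of 84 H3K23su regions on chromosome 12, 24 were present in all 4 libraries, 10 (11.9%) in HCT15-FR only, that is in both HCT15-FR and neither HCT15-Pa library, and 2 in HCT15-Pa only. Of 53 on chromosome 17 there were 9, 5 (9.43%) and 2. Over the genome 7.95% of H3K23su regions were of the HCT15-FR kind and 5.01% of the HCT15-Pa kind. For H3K27ac there were 92 regions on chromosome 12, with 32 in all 4 libraries, 8 (8.70%) in HCT15-FR only and 2 in HCT15-Pa only, and 51 on chromosome 17, with 14, 8 (15.7%) and 0. The genome gave 9.08% and 4.53%. Regions present in all 4 libraries made 28.6% (chromosome 12) and 16.98% (chromosome 17) of those of H3K23su, against 23.9% over the genome, and 34.8% and 27.5% of those of H3K27ac, against 25.2%. These counts moved with single libraries: those of HCT15-FR only, 15 and 16 over both clusters, were 28 and 29 without HCT15-FR replicate 1 and 32 and 31 without replicate 2.

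With peaks of both marks merged, 109 regions lay in the chromosome 12 cluster and 68 in that of chromosome 17. Of these, 22 (20.2%) and 7 (10.3%) had peaks in all 8 libraries, against 13.4% of merged regions of the genome, and 38 and 29 came from a single library. Only 11 of the 29 regions present in all 8 libraries reached within 2 kb of a keratin TSS. The other 18, 14 on chromosome 12 and 4 on chromosome 17, lay inside or between genes. The widest, chr12:53318719-53321576, was 2858 bp long, with its middle 21.3 kb upstream of the KRT8 TSS used here. It lay within the gene record of KRT8, over an exon and UTR. Its H3K27ac peaks covered 2724 and 2637 bp in HCT15-Pa and 2605 and 2752 bp in HCT15-FR. Another region, in an intron of KRT86, a hair keratin without a TSS peak, lay at chr12:52673647-52675375, 6.08 kb downstream of its TSS, and its H3K27ac peaks stood at percentiles 95.5 to 98.1 of their lists.

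The regions present in HCT15-FR only for both marks were 4 on chromosome 12 (3.67%) and 1 on chromosome 17 (1.47%), against 2.00% of the genome, and none was present in HCT15-Pa only for both (background 0.744%). At chr12:52834475-52835577, between genes and 6.87 kb upstream of KRT75, H3K23su covered 988 and 757 bp and H3K27ac 977 and 1103 bp of HCT15-FR. At chr12:52848205-52848696, between genes and 2.52 kb upstream of KRT6B, H3K23su covered 263 and 181 bp and H3K27ac 343 and 445 bp, with H3K27ac peaks at percentiles 85.7 and 76.2. Neither KRT75, a keratin of the hair follicle, nor KRT6B, of stressed epithelium, had a peak within 2 kb of its TSS.

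At chr12:52910075-52910683, over an exon and intron of KRT5 and 3.80 kb from its TSS, H3K23su covered 525 and 227 bp and H3K27ac 442 and 588 bp, with peaks at percentiles 11 to 30.8 in the 4 libraries. At chr12:52701881-52702820, over an exon of KRT86 that includes UTR and 12.8 kb from the TSS of KRT83, H3K23su covered 500 and 824 bp and H3K27ac 746 and 738 bp. At chr17:39569434-39570847, between genes and 10.7 kb from the TSS of KRT37, H3K23su covered 1134 and 366 bp and H3K27ac 1028 and 770 bp. In the stronger 50% of each list 3 such regions were found, and without HCT15-FR replicate 2 of H3K23su 9. Of the regions described, only those upstream of KRT75 and KRT6B kept peaks of both marks in both HCT15-FR libraries in that stronger 50%. The 3 were therefore not all among the regions described.

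Some regions were specific to a line for H3K23su alone, with H3K27ac in all 4 libraries. H3K23su was in HCT15-FR only at 1 of 177 regions of the clusters (0.565%), against 0.765% over the genome, at chr12:52729317-52729797, between genes and 14.4 kb from the KRT83 TSS. It was in HCT15-Pa only at 2 (1.13%), against 0.353%, at chr12:53273195-53273909, 25.3 kb from the KRT8 TSS, and chr17:39691963-39692847, 7.85 kb upstream of the KRT19 TSS. Both of these lay between genes.

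**Figure D4:**
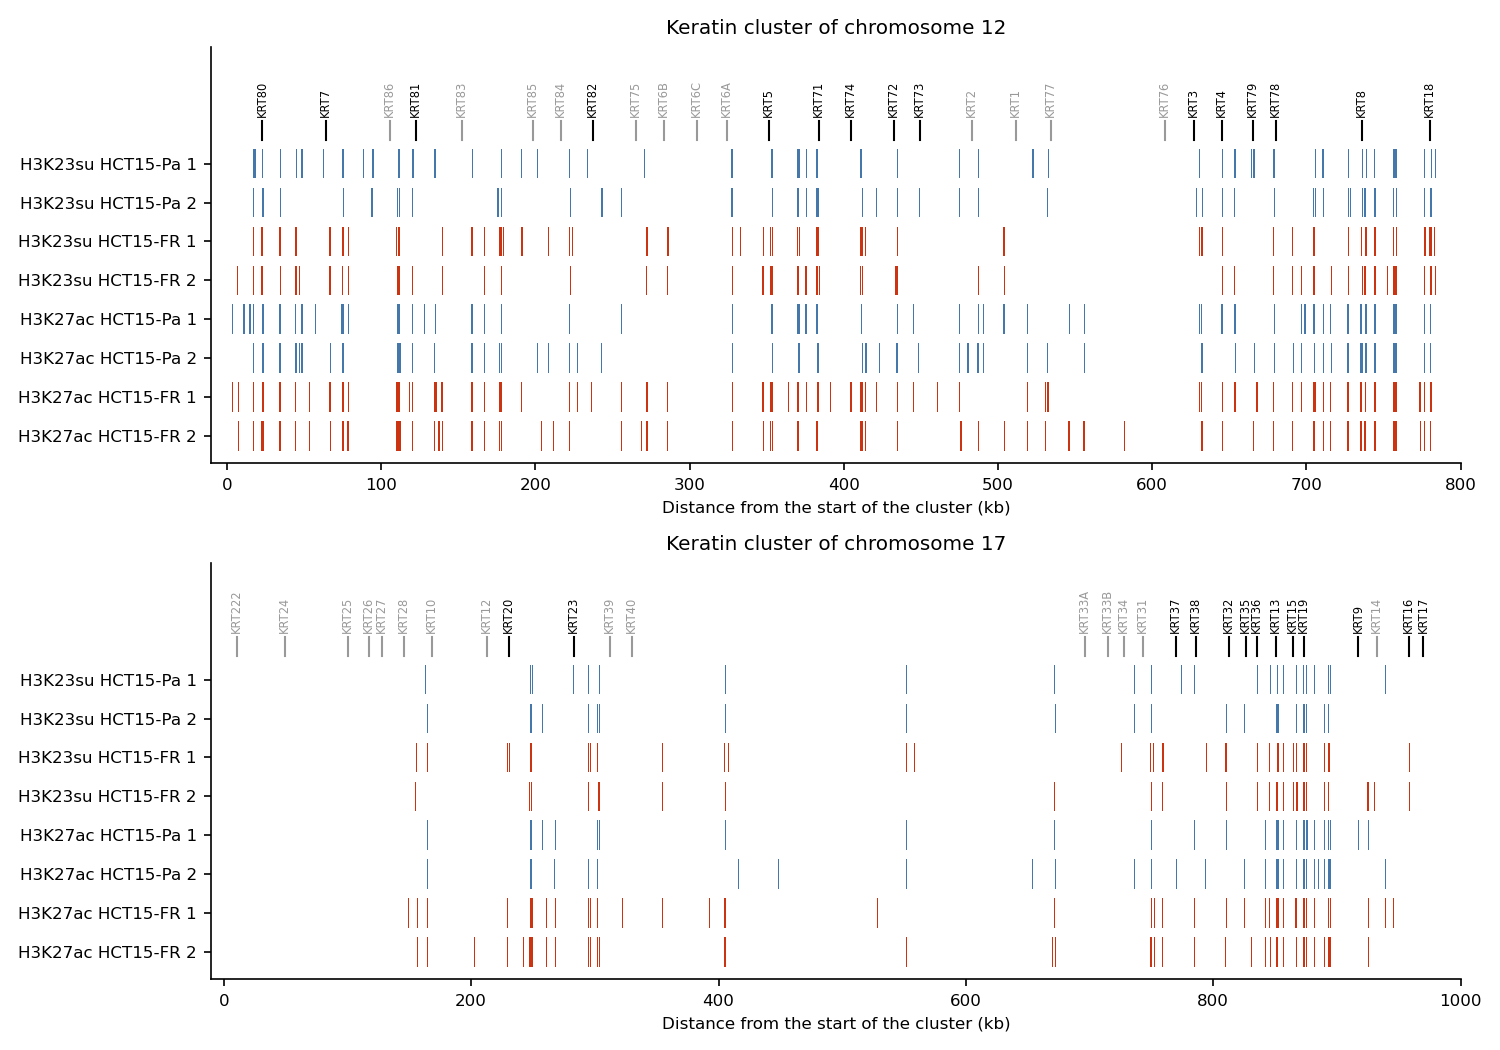
Peaks of each of the 8 libraries (rows, HCT15-Pa blue, HCT15-FR red) along the keratin clusters of chromosome 12 and chromosome 17, as distance in kb from the start of the cluster, with peaks drawn at least 0.8 kb wide and keratin TSSs marked above (black with a TSS peak in at least 1 library, grey with none). Peaks crowd around KRT8 and KRT18 and around KRT13 and KRT19, and long stretches of the chromosome 17 cluster hold few.

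Long stretches of the clusters had no peak in any library. On chromosome 17 the longest ran over the first 149.1 kb of the cluster and held the TSSs of 6 keratins, KRT222, KRT24 and the hair follicle sheath keratins KRT25, KRT26, KRT27 and KRT28. The next ran over 94.8 kb and 79.5 kb, each with the TSSs of 8 keratin-associated protein genes, which encode the matrix of the hair shaft, and a further one of 53.1 kb held KRT33A and KRT33B. On chromosome 12 a stretch of 46.5 kb held the TSSs of KRT76 and KRT3 and a stretch of 40.7 kb those of KRT6C and KRT6A, although a window of 2 kb reached past the stretch at KRT3. Of 34 keratin-associated protein genes inside the chromosome 17 cluster, 32 had no H3K23su and 29 no H3K27ac TSS peak. Over all protein-coding genes 33.4% had no H3K23su and 26.5% no H3K27ac TSS peak. Of 9 protein-coding genes within 200 kb of either cluster, 6 had a peak in all 4 libraries for either mark, on both chromosomes. The shares over all protein-coding genes were 54.7% for H3K23su and 59.0% for H3K27ac.

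The authors kept uniquely mapped reads, and reads from sequence repeated in the genome were not kept. A median of 0% of the 100-base runs in the windows around the keratin TSSs occurred more than once in the genome. Values above 10% were found at KRT81 (39.7%), KRT6C (20.8%) and KRT6B (18.6%), and peaks or their absence at these genes are uncertain. Only KRT6B and KRT6C of these were among the 27 keratins without any peak, and the 8 genes with peaks in all libraries did not exceed 0.897%. Sequence outside these windows, which includes the keratin-associated protein genes, was not searched for repeats. Missing peaks there are therefore uncertain too.

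Genes that work with keratins were taken as a list of 50. Its 19 desmosome and linker genes tie keratin filaments to the cell membrane, and 11 had an H3K23su and 12 an H3K27ac TSS peak in all 4 libraries, among them DSP, JUP, PKP3, DSG2 and PPL. Over all protein-coding genes the shares with a peak in all 4 libraries were 54.7% for H3K23su and 59.0% for H3K27ac, so these counts, and those of the regulators and other filament genes that follow, are given as a description. DST, a linker to hemidesmosomes, had a peak in HCT15-Pa only for both marks. Of 15 epithelial regulators 8 had H3K23su and 9 H3K27ac in all 4 libraries, such as KLF5, ELF3 and HNF4A. CDX1, a transcription factor of the intestine, and GRHL3, one of stratified epithelium, had peaks in HCT15-FR only for both marks, and GRHL2, another regulator of epithelia, had H3K23su in HCT15-Pa only. Of 16 other intermediate filament genes 6 and 9 had peaks in all 4 libraries, and VIM, the mesenchymal filament gene, had H3K23su in HCT15-FR only and H3K27ac in all 4. Over all genes a peak in HCT15-FR only was found at 1.86% (H3K23su) and 1.42% (H3K27ac), and in HCT15-Pa only at 1.72% and 2.19%.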

How the data were processed

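The data are CUT&Tag peaks of H3K23su and H3K27ac, from 2 libraries per line and mark. According to the methods of the study, the authors mapped reads to hg19 (Bowtie2), retained unique, properly paired alignments after removing duplicates (SAMtools), and called the peaks of every library separately (MACS2, in broad mode for H3K27ac). Each deposited peak has a score, the −log10 of its P value by the authors. Scores depend on depth, which the lists do not give, and were used only as percentiles within a list.

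TSS peaks, covered bp and merged regions were computed with Python 3.11.15 and numpy 2.4.6 against GENCODE release 44 on GRCh37, and figures with matplotlib 3.10.9. Libraries were compared by two-sided exact permutation tests. Genes and regions are not replicates, so counts were set beside those of all protein-coding genes or regions without a test. The computations were tested on simulated data.

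The genes described are KRT8, KRT18, KRT19 and KRT20, every keratin with TSS peaks in both libraries of one line and neither of the other, and up to 12 with peaks in the most libraries. Regions described singly are those specific to a line for both marks, and others were chosen after their values were seen. The members and lists were chosen with earlier results of these data known. Alternatives were windows of 1 and 5 kb, other TSSs, the peak midpoint, the stronger 50% of peaks, lists of equal length, a shared minimum score, symbols without a final letter, wider clusters, and leaving out each library. Counts of longer peaks, of cluster regions and the covered bp of single genes joined these after the data were examined. A gene of the partner list and an upstream sequence are not reported here.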

Additional observations from a re-analysis of the deposited data

How the results depend on the processing

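Of 72 recomputed differences over the clusters, in peaks or in covered length, 70 kept their direction. Only the direction could be compared, as the exact test cannot reach a threshold in this design. The exceptions were the H3K23su peaks on chromosome 12 (3, and −1 without HCT15-Pa replicate 2) and the H3K27ac peaks on chromosome 17 (8.5, and −1.5 in the stronger 50% of each list). Of 273 recomputed covered lengths of single genes 20 changed sign. In 19 of them, at 8 genes, the lines had overlapped in all peaks, such as H3K23su at KRT71 (214 bp, and −34 bp without HCT15-Pa replicate 1). The other was H3K23su at KRT78, where they had not, at −22.5 bp in a window of 1 kb. In the stronger 50% of each list, the H3K23su counts were 5 keratins with a peak in all 4 libraries, 0 in HCT15-FR only and 2 with longer peaks in HCT15-FR, and the difference of TSS peaks was 0.5. The H3K27ac difference was then −0.5, with 2 genes with longer peaks, 10 regions in HCT15-FR only and 3 regions for both marks. In a window of 1 kb the H3K23su difference was 1.5, H3K27ac was in all 4 libraries at 6 keratins, longer peaks were counted at 3 keratins for either mark, and the marks differed by −1.25. In a window of 5 kb 1 keratin had H3K23su in HCT15-Pa only and 2 had H3K27ac in HCT15-FR only. By the peak midpoint the H3K23su difference was 0, 2 keratins had H3K27ac in HCT15-FR only, and the marks differed by −0.5. Equal list lengths gave −0.25 for the marks. The 5′ end of the gene record, or any annotated transcript, gave 1 keratin with H3K23su in HCT15-FR only. The cause of these changes was not tested.

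Leaving out each library in turn gave ranges. For H3K23su the keratins in HCT15-FR only were 2 to 4, in HCT15-Pa only 0 to 6, the difference of TSS peaks −3 to 2, longer peaks at 6 to 10 keratins, the difference of chromosome 12 peaks −1 to 7, and regions in HCT15-FR only 18 to 32. For H3K27ac the keratins in HCT15-FR only were 1 to 3, in HCT15-Pa only 0 to 2, longer peaks at 5 to 8, and regions in HCT15-FR only 21 to 31. Regions for both marks were 5 to 9, and the marks differed by −0.25 to 1.42 keratins. A rule over 1 library is easier to meet than a rule over 2, which bears on the counts and not on the differences of means. Its part in these ranges was not tested. With the libraries paired by replicate number as a block, the exact sign-flip permutation test gave p = 0.5 at the least. An example was the H3K23su length on chromosome 12 (10.3 kb). This is the smallest p that 2 pairs can give, so the test could not change a call. The deviations of libraries with the same number correlated at 0.00234 for H3K23su over 13421 genes and at −0.00418 for H3K27ac over 14828. No pairing by number was seen in these values. They cannot show whether libraries of the same number shared a culture or batch. The number of libraries and the unknown depth limit every value.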
